A study of Mus musculus with 4 samples.

Results

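The Dlk1 and Meg3 cluster is an imprinted region of mouse chromosome 12 in which some genes are expressed from the paternal and others from the maternal allele. Its members here were 8 genes taken by symbol from the deposited H3K27me3 table (Begain, Dlk1, Meg3, Rtl1, 6430411K18Rik, Rian, Mirg and Dio3), out of 22691 listed genes, and all 8 had values in both genotypes, as did 20606 genes in all. H3K27me3, histone H3 trimethylated at lysine 27, was measured by chromatin immunoprecipitation with sequencing (ChIP-seq) in cultured fibroblasts of C57BL6/J female mouse embryos at stage E13.5, with the monoclonal antibody CMA323. The series compared Smchd1 +/+ cells (WT) with Smchd1 MD1/MD1 cells (MD1), which the series describes as deficient for SmcHD1, a chromatin protein required for X inactivation, and asked about its role in the chromatin states that maintain X inactivation. Each genotype had 1 ChIP library and 1 input library made without antibody. There is therefore no replicate error, no test between the genotypes and no p-value, and how many fetuses gave the cells is not given in the sources used here.

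Polycomb repressive complex 2 lays down H3K27me3 at silent developmental genes, mostly where the DNA is rich in CG dinucleotides and not transcribed. In the Dlk1 and Meg3 cluster the protein-coding genes Dlk1, Rtl1 and Dio3 are expressed mainly from the paternal allele and the noncoding RNA genes Meg3, Rian and Mirg from the maternal allele, under the control of a methylated region between Dlk1 and Meg3. The Meg3 RNA itself has been reported to bind Polycomb repressive complex 2. Values here do not separate the parental alleles, so each is an average over both.

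The unit was the log2 of H3K27me3 enrichment over the whole gene, and a difference is MD1 minus WT, a difference of 1 being a 2-fold higher enrichment in MD1. The members were chosen by symbol with their deposited WT and MD1 enrichments known from earlier results, so these values and their differences are a description. Over 19836 autosomal genes the deposited values ran lower in MD1, with a median difference of -0.27, and MD1 values were more widely spread, rising by 1.25 for each unit of WT in a straight-line fit. A level-matched difference is therefore given beside the plain one. For this, the median difference of 500 autosomal genes in the same quartile of gene length, those closest to the gene in their mean of both values, was subtracted, and the standard deviation (SD) among those 500 genes is the only yardstick of spread at hand.

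Sequences before the start sites are shown for the member with the most H3K27me3 (Dio3), for the 2 genes that name the cluster (Dlk1 and Meg3) and for the member with the largest difference (6430411K18Rik). Each is 250 bases upstream of a RefSeq start site in build GRCm38.p6, 5′ to 3′ on the gene's strand, with CG dinucleotides in capitals. The Dio3 stretch is chr12:110278980-110279229, that of Dlk1 chr12:109452573-109452822, that of Meg3 chr12:109540746-109540995 and that of 6430411K18Rik chr12:109591287-109591536, all on the plus strand.
Dio3: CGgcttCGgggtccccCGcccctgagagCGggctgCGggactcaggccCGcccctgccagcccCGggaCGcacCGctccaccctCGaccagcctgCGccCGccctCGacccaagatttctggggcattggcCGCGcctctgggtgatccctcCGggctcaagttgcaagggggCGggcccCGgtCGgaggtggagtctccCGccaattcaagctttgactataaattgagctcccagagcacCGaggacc
Dlk1: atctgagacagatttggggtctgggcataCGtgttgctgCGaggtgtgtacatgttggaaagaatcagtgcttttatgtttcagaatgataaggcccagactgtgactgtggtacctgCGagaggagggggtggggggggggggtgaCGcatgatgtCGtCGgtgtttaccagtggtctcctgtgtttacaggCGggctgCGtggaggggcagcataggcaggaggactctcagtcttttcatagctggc
Meg3: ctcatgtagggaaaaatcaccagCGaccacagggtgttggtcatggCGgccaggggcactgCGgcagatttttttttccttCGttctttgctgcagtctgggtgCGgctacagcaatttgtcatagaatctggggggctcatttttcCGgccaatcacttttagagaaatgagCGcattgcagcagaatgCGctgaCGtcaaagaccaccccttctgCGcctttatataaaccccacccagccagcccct
6430411K18Rik: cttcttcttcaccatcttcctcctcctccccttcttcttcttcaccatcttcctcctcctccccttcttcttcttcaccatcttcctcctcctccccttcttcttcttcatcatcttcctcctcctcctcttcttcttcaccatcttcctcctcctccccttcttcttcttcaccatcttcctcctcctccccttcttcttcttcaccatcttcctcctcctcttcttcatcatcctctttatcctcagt

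A CG, which reads the same on both strands, occurred in 92.1% of 32851 RefSeq windows of this length, with a median of 6 per window. Begain had 5 windows and Meg3 had 2, and the one whose start site best fit the deposited gene length was used. Of the 7 members with a window, Begain held 37 CG dinucleotides in that window and Dio3 21, numbers reached by 2.20% and 16.3% of all windows. Meg3 and Mirg held 10 each and Dlk1 held 8, while Rian and 6430411K18Rik held none. The 6430411K18Rik stretch is a repeat of cytosines and thymines, which made up 92.4% of its bases against a median of 50% over all windows, and no other window was as rich in them. The deposited value covers the whole gene, so the mark at these stretches was not measured apart from it.

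H3K27me3 was higher in MD1 than in WT cells at all 8 members, by 1.22-fold at Dio3 to 4.24-fold at 6430411K18Rik. Positive differences were found at 31.0% of autosomal genes, and at 46.9% of the 10610 autosomal genes whose WT value lay within the members' range. At least 2-fold higher were 2 of the 8 members, Rtl1 and 6430411K18Rik, against 1.61% of autosomal genes and 1.41% of those in the members' range. No member was at least 2-fold lower, against 20.4% of autosomal genes and 2.76% of those in the members' range. Level-matched, all 8 differences were again positive, against 49.6% of autosomal genes, and the same 2 members were at least 2-fold higher, against 3.17%. None was at least 2-fold lower, against 3.42%. Over the members the median went from -0.14 in WT to 1.01 in MD1, and the median of their differences was 0.62, or 0.58 level-matched. The same medians over all autosomal genes were -0.78 and -0.90, with the difference of -0.27 given above. The gene 6430411K18Rik lies inside the Rtl1 interval, so the 2 genes can share reads. Without this pair none of the other 6 members reached 2-fold and their median difference was 0.53.

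**Figure D1:**
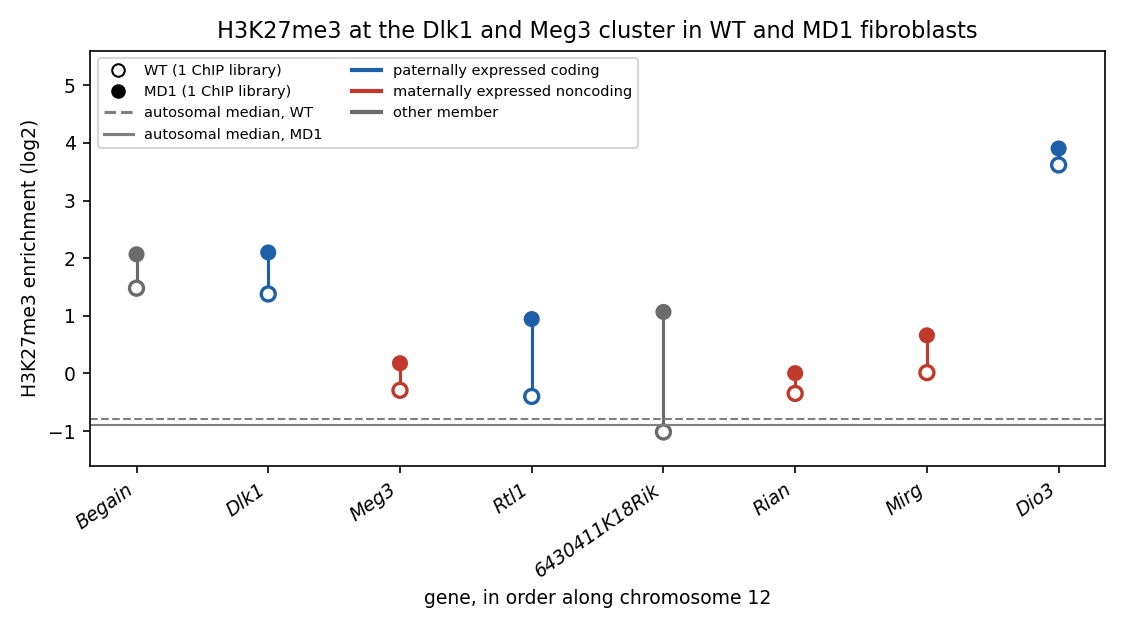
H3K27me3 enrichment (log2, vertical axis) of the 8 members in their order along chromosome 12, with open circles for WT and filled circles for MD1 (1 ChIP library each) and horizontal lines at the autosomal medians of -0.78 (WT) and -0.90 (MD1). Every filled circle lies above its open circle, and Dio3 lies far above the others in both genotypes.

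The paternally expressed coding genes spanned the widest range of levels. Dlk1, a transmembrane relative of the Notch ligands also known as preadipocyte factor, is on the plus strand at chromosome 12, 110691033 to 110701546 (mm9). Its enrichment was 1.38 in WT cells and 2.10 in MD1 cells, 1.65-fold higher or a difference of 0.72, and 0.62 level-matched with an SD of 0.31 among the matched genes. In WT 1848 autosomal genes carried more H3K27me3 than Dlk1, and in MD1 680 did. Dlk1 was thus among the more enriched autosomal genes in both genotypes, at percentiles 90.7 and 96.6.

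Dio3 encodes the deiodinase that inactivates thyroid hormone, and at 111517440 to 111519307 it is the last member along the chromosome. It stood at 3.62 in WT, and in MD1 at 3.90. These were the highest values of the 684 chromosome 12 genes compared, and 6 autosomal genes in WT and 3 in MD1 were higher. Its difference, 0.29, was the lowest of the members and smaller than the SD of 0.56 among level-matched genes. The neighbouring antisense gene Dio3os, which is not a member and does not overlap Dio3 in the table, stood at 2.60 and 2.41, differing by -0.19.

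Rtl1, a gene derived from a retrotransposon that is needed for placental capillaries, lies on the minus strand at 110828379 to 110833613. It went from -0.40 in WT up to 0.94 in MD1, giving a difference of 1.34 or 2.54-fold, and 1.39 level-matched with an SD of 0.67. On chromosome 12, 3 genes had a higher difference, 6430411K18Rik among them. In WT Rtl1 was near the middle of the autosomal genes, at percentile 56.4, and in MD1 it was at percentile 82.8.

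The gene 6430411K18Rik lies on the opposite strand wholly inside the Rtl1 interval, at 110829747 to 110831061, and RefSeq lists it as a noncoding RNA with the synonym PEG11as, Peg11 being a synonym of Rtl1. It had the lowest WT value of the members, -1.02, and stood at 1.07 in MD1, which is a difference of 2.08 or 4.24-fold, and 2.14 level-matched with an SD of 0.69. A higher difference was found at 30 of the 19836 autosomal genes. ChIP reads carry no strand, so reads there can count for both genes, and the 2 values are not independent results. Rtl1 spans 5235 bp, so its value also covers DNA outside 6430411K18Rik. The 1315 bp of 6430411K18Rik hold the microRNA hairpin Mir433 in RefSeq. Both mature arms are shown because they mark the transcript in which the difference was largest, with the seed (bases 2 to 8) in capitals. In GRCm38.p6 they lie at chr12:109591729-109591750 and chr12:109591781-109591802 on the plus strand.
mmu-miR-433-5p: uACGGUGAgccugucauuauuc
mmu-miR-433-3p: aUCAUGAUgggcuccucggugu

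The linear enrichments have the form that ChIP reads over input reads would give. Up to 1 scaling constant per genotype, 99.98% of WT and 99.95% of MD1 values matched a fraction with terms of up to 20000 (relative tolerance 1e-12). A fraction gives its terms only after common factors are cancelled, and the read numbers and depth stay unknown. For 6430411K18Rik the ratio was 12 to 25 in WT and 15 to 7 in MD1, and for Rtl1 it was 39 to 53 and 59 to 30, terms small enough for either gene to rest on few reads. Rian, the longest member, had 673 to 882 and 908 to 885. Dlk1 had 53 to 21 and 390 to 89, and Dio3 143 to 12 and 199 to 13. Meg3 had 61 to 77 and 89 to 77, Mirg 99 to 101 and 283 to 175, and Begain 893 to 330 and 30 to 7, so cancelled terms did not follow gene length.

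The maternally expressed noncoding genes Meg3, Rian and Mirg had similar, middling levels in WT. Their differences were smaller than that of Rtl1 but larger than that of Dio3 (0.29, or 0.19 level-matched). Level-matched, Mirg was also above Dlk1 (0.62). The noncoding 6430411K18Rik, grouped apart from them here, had the largest difference of the members. Meg3, the gene of a long noncoding RNA (110779206 to 110809939), went from -0.29 to 0.18, a difference of 0.47, and 0.54 level-matched with an SD of 0.32. Rian, the host of many small nucleolar RNAs (110842155 to 110899921), went from -0.35 to 0.01, a difference of 0.35, and 0.52 level-matched with an SD of 0.28. Mirg, the host of a large microRNA cluster (110973191 to 110987667), went from 0.01 to 0.66, a difference of 0.65, and 0.68 level-matched with an SD of 0.37. In each of these genes the level-matched difference was larger than the SD of its matched genes but smaller than 2 SDs. Of the RefSeq microRNA hairpins on the gene's own strand, 10 lay within Mirg, 3 within Rian and 1 within Meg3.

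Begain, which encodes a protein of the neuronal postsynapse, lies on the minus strand at 110270392 to 110306427, 384.6 kb from Dlk1 and at the far end of the cluster from Dio3. In WT it stood at 1.48 and in MD1 at 2.07, differing by 0.59, and 0.45 level-matched with an SD of 0.25. These levels were close to those of Dlk1 in both genotypes.

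In WT the order of levels from high to low was Dio3, Begain, Dlk1, Mirg, Meg3, Rian, Rtl1 and 6430411K18Rik. Dio3 stood 2.14 above Begain, and Dlk1 stood 1.36 above Mirg, while the other neighbours in this order were 0.05 to 0.62 apart. In MD1 the order was Dio3, Dlk1, Begain, 6430411K18Rik, Rtl1, Mirg, Meg3 and Rian. Here 6430411K18Rik and Rtl1 were above Mirg, Meg3 and Rian. The error of a level within 1 library is unknown, so which neighbours in either order differ beyond their spread cannot be said.

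**Figure D2:**
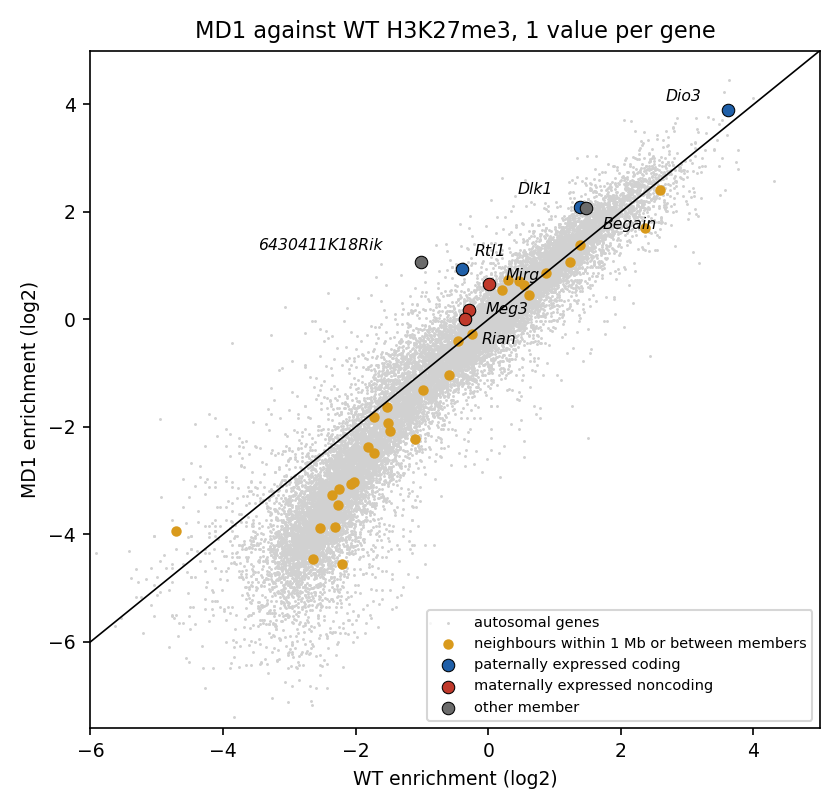
MD1 against WT enrichment (both log2), 1 point per gene, for all autosomal genes (grey), neighbours of the cluster (orange) and the 8 members (coloured by role), with a line where both genotypes are equal. The members lie above the line, Rtl1 and 6430411K18Rik farthest from it, while 24 of the 31 neighbours lie below it. Above the line are 31.0% of autosomal genes.

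The neighbours were the 31 other genes between the members or within 1 Mb of them. Of these, 7 had a positive difference, against 31.0% of autosomal genes, and 24 had a negative one, with a median of -0.41. The 2-fold limit was passed downward by 7 of them and upward by none, against 20.4% and 1.61% of autosomal genes. Level-matched, 12 of the 31 were positive, against 49.6% of autosomal genes, and the median was -0.11. Past the limit were 1 downward (Hsp90aa1, -1.11) and 1 upward (B930059L03Rik, 2.43), against 3.42% and 3.17%. Most neighbours had little H3K27me3 in WT. Among the 14 whose WT value lay within the members' range, 6 differences were positive, against 46.9% of autosomal genes in that range. Their median was -0.015 and their range -0.66 to 0.44, so the highest was below the differences of 6 of the 8 members. The 17 neighbours with less mark than any member in WT had a median difference of -0.92, or -0.11 level-matched.

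On the Begain side the nearest neighbour, Wdr25, encoding a WD-repeat protein, went from 0.20 to 0.54, a difference of 0.34, or 0.37 level-matched. The next ones, the tryptophanyl-tRNA synthetase gene Wars (-0.98, or -0.11 level-matched) and the mitochondrial carrier gene Slc25a47 (-0.34, or -0.26 level-matched), had negative differences. Beyond Dio3, the phosphatase subunit gene Ppp2r5c differed by -0.41 and the dynein heavy chain gene Dync1h1 by -1.81. Level-matched, their differences were 0.05 and -0.45. Between those 2 genes, B930059L03Rik had the highest difference of any neighbour, 0.77, going from -4.71 to -3.94, with ratios of 1 to 27 and 1 to 15 in lowest terms. The lowest was at the heat shock protein gene Hsp90aa1, from -2.20 to -4.56, a difference of -2.35. Within the cluster, 3110009F21Rik, between Mirg and Dio3, differed by 0.44, or 0.46 level-matched with an SD of 0.67. Genes with a positive difference thus ran without a break from Wdr25 to 3110009F21Rik, and Dio3os was the gene between members with a negative one.

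**Figure D3:**
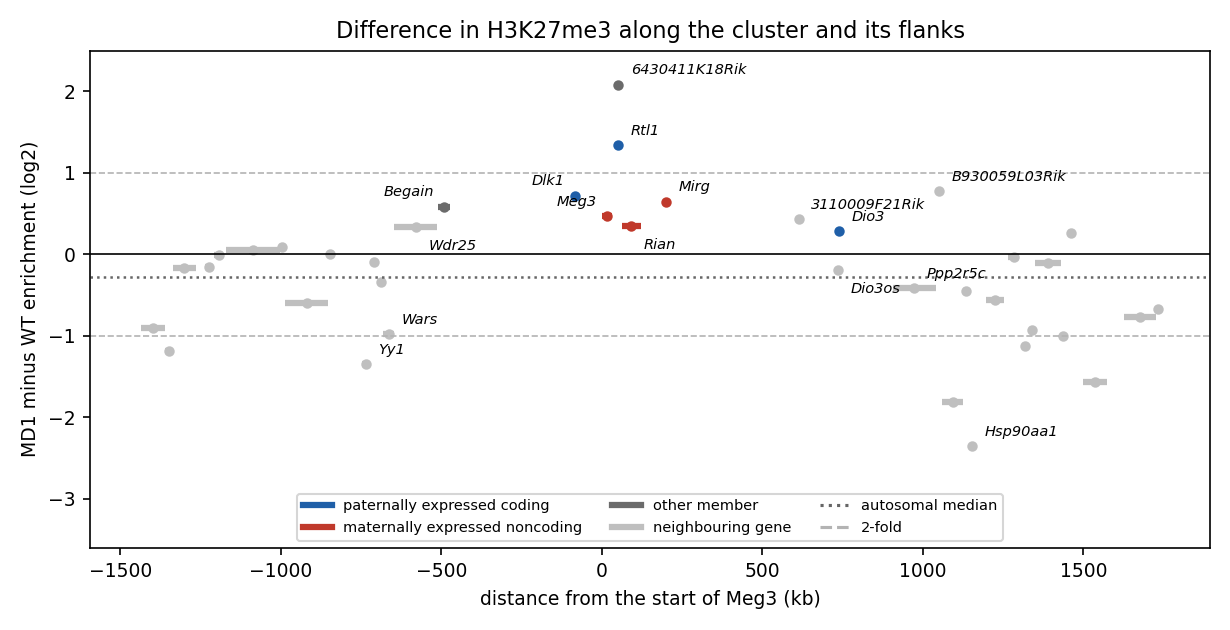
Difference in H3K27me3 (MD1 minus WT, log2) against distance from the start of Meg3 (kb) for the members (coloured by role) and the 31 neighbours (grey), with bars spanning each gene, dashed lines at 2-fold and a dotted line at the autosomal median of -0.27. The members lie between 0.29 and 2.08, and the neighbours between -2.35 and 0.77.

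Other imprinted regions of the same libraries were set beside the cluster, without a test since each value comes from 1 library pair. Of 47 genes with values in 5 other imprinted lists, 23 had a positive difference, against 31.0% of autosomal genes, and the median was -0.0026. The 2-fold limit was passed downward by 6 of the 47 and upward by 4, against 20.4% and 1.61% of autosomal genes. Level-matched, 27 were positive, against 49.6% of autosomal genes, and the median was 0.050. Past the limit were 3 each way, against 3.42% of autosomal genes downward and 3.17% upward. The Snrpn cluster had a median of -1.13 over 6 genes (-0.47 level-matched), with 1 positive difference, and its largest was at Peg12 (-4.77). The Igf2r cluster had a median of 0.10 over 4 genes (0.12 level-matched), led by the transporter gene Slc22a2 (0.29). The Kcnq1 domain had a median of -0.0026 over 11 genes (0.064 level-matched), with Cd81, encoding a tetraspanin, at -2.59. The Peg10 and Mest domains had a median of -0.075 over 10 genes (0.013 level-matched), led by Mest (1.18). Over 16 genes of small imprinted loci the median was 0.076 (0.17 level-matched), led by the noncoding RNA gene H19 (1.77). Each of these lists held plain differences of both signs, but level-matched all 4 genes of the Igf2r cluster were positive too.

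**Figure D4:**
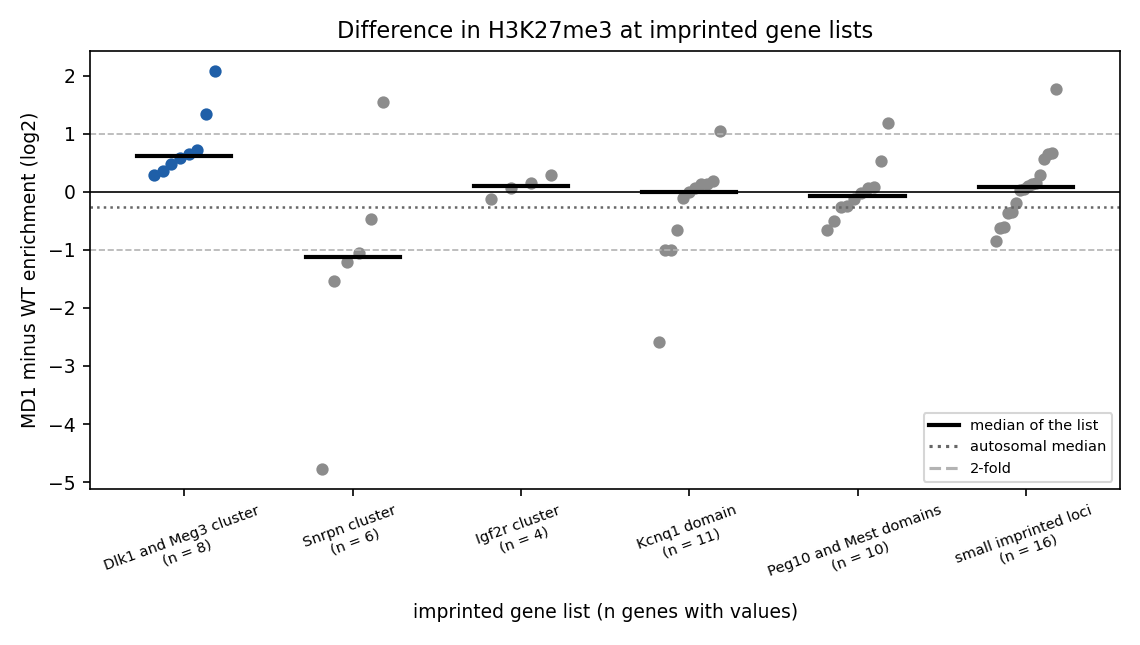
Difference in H3K27me3 (MD1 minus WT, log2) for each gene of the Dlk1 and Meg3 cluster (blue) and of 5 other imprinted lists (grey), with black bars at the list medians, dashed lines at 2-fold and a dotted line at the autosomal median of -0.27. The 8 members of the cluster have the highest median, 0.62, and no negative value. Dio3os (-0.19) and 3110009F21Rik (0.44), which lie between members, are not plotted.

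The imprinted gene most like each member was taken as the one nearest in both log2 values, a measure over 2 libraries only. Dlk1 was nearest to Cdkn1c, encoding a cell cycle inhibitor (1.08 in WT and 2.12 in MD1), at a distance of 0.30, and then to Slc22a18 at 0.43. For Begain these were the same genes, Slc22a18 at 0.33 and Cdkn1c at 0.41. Rtl1 and 6430411K18Rik were both nearest to H19 (-0.40 and 1.36), at 0.42 and 0.68, followed by Grb10 at 0.88 and Mest at 0.93. Meg3 and Rian had Gnas and Sgce as their nearest genes, at distances of 0.21 to 0.33, and Mirg had Grb10 at 0.40 and Asb4 at 0.50. No imprinted gene came close to Dio3, for which Igf2 lay at 2.28 and Ascl2 at 2.70.

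Genes of the pathways of Dlk1 and Dio3 had list medians near 0. For their counts, the autosomal shares were 20.4% at least 2-fold lower and 1.61% higher, or 3.42% and 3.17% level-matched. Of 23 Notch ligands, receptors and targets, related to Dlk1, 1 was at least 2-fold lower, the coactivator gene Maml1 (-1.73), and none was higher, with a median difference of -0.080. Level-matched, none was lower (Maml1, -0.55), 1 was higher (the transcriptional repressor gene Hes1, 1.75, with an SD of 1.15) and the median was -0.10. Dlk2, the closest relative of Dlk1, went from 0.73 to 0.64. Of 13 thyroid hormone genes, related to Dio3, 2 were at least 2-fold lower, Thrap3 (-2.24) and Klf9 (-1.37), and none was higher, with a median of -0.050. Level-matched, none was past the limit either way (Thrap3, -0.68, and Klf9, -0.48), and the median was -0.14. The other deiodinase genes stood at 1.77 in WT and 1.79 in MD1 (Dio1) and at 0.37 and 0.05 (Dio2), below Dio3 in both genotypes.

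Retrotransposon-derived gag genes, related to Rtl1, had a positive difference at all 10 with values, against 31.0% of autosomal genes. They reached 2-fold at none, with a median of 0.54. Level-matched, 9 were positive, against 49.6% of autosomal genes, and the median was 0.55. On the X chromosome, where 69.1% of genes had a positive difference, lay 6 of them. The 4 autosomal ones, Pnma1, Pnma2, Arc and Peg10, had a median of 0.30, or 0.43 level-matched. Of 11 genes for Polycomb subunits, 5 were at least 2-fold lower, among them Phf1 (-2.38), Rbbp4 (-2.09) and Suz12 (-1.34), and none was higher. The autosomal shares were 20.4% lower and 1.61% higher. Level-matched, none of the 11 was past the limit either way and the median was -0.015.

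Smchd1 itself stood at -2.44 in WT and -3.47 in MD1, which does not check the genotype because a histone mark is not expression. At 15 fibroblast marker genes the median was -2.84 in WT and -3.99 in MD1. Positive differences were found at 4 of them (Postn, Lum, Thy1 and Pdgfrb), against 31.0% of autosomal genes. At least 2-fold lower were 8 of the 15, against 20.4% of autosomal genes, and none was higher, against 1.61%. Level-matched, none was lower and 2 were higher (Postn, 1.34, and Pdgfrb, 1.11), against 3.42% and 3.17% of autosomal genes. Also level-matched, 10 were positive, against 49.6%, and the median difference was 0.19. The median level was -0.060 and 0.084 at 4 endothelial and -0.28 and -0.51 at 4 macrophage marker genes, where 1 of the 4 macrophage genes, Cd68, was at least 2-fold lower (-0.34 level-matched). Col1a1, Col1a2 and Vim, picked from the fibroblast list after their values were seen, were low in the mark in both genotypes. Every gene of that list was below the autosomal median of -0.78 in WT, with Lum highest at -0.83. In MD1 Lum stood at -0.15, above the autosomal median of -0.90. The macrophage gene Cd68 was low too (-2.42 in WT and -3.99 in MD1), while Ptprc, Emr1 and Csf1r were above both medians. A low value was therefore not particular to fibroblast genes. Expression of the members was not measured here.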

How the data were processed

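Gene positions and H3K27me3 enrichments of both genotypes came from 1 table that the authors deposited. Its deposited values are on a log2 scale, judged from their range (WT, -5.91 to 4.31; MD1, -7.41 to 4.45). Coordinates are in mm9, per the submitters' processing notes. For the aligner, counting, filters and denominator, the sources used here give nothing. The table's starts count from 0 and are printed with 1 added.

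Differences, list counts and medians were computed with Python 3.11.15, pandas 2.3.3 and numpy 2.4.6, over genes with values in both genotypes and with a limit of 2-fold. The level-matched difference and the search for whole-number ratios were tested on simulated data. The members and gene lists were chosen with earlier results of these data known. Named were all members, the 3 nearest neighbours on each side and the neighbour with the largest difference each way, the 2 most alike imprinted genes per member, the largest difference of each imprinted list, up to 4 genes past 2-fold per pathway list, and Smchd1. Other genes, such as Dio3os, 3110009F21Rik, Dlk2, Hes1, Dio1, Dio2 and the fibroblast genes, were chosen after their values were seen. Promoter and microRNA sequences are RefSeq's, GRCm38.p6, matched by symbol. The alternatives were a pseudocount (0.01 or 1) added to the linear enrichment, centring, quantile scaling of MD1 to WT over autosomal genes, level matching, a minimum mean level (25th percentile), leaving out overlapping members, 1 entry per symbol, limits of 1.5-fold and 3-fold, the mean for the median and, added after the data were seen, matching on the WT value alone.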

Additional observations from a re-analysis of the deposited data

How the results depend on the processing

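Under 6 rescalings of the members' differences (both pseudocounts, centring, quantile scaling and both matchings) all 48 values were positive. A pseudocount added to both genotypes keeps the sign of a difference, and centring here raised every difference. Only quantile scaling and the matchings could therefore have turned a positive difference negative. The lowest were those of Dio3 and Rian, 0.14 to 0.56 and 0.17 to 0.62, and the median over members ran from 0.41 with a pseudocount of 1 to 0.89 when centred on the autosomal median. The number of members at least 2-fold higher, 2, became 1 with a pseudocount of 1, where Rtl1 was at 0.73 and 6430411K18Rik at 1.05. It became 0 without the overlapping pair, 5 at a limit of 1.5-fold and 1 at 3-fold. With a pseudocount of 1, 0.18% of autosomal genes were at least 2-fold higher. Autosomal shares at 1.5-fold and 3-fold were not computed, so the counts at those limits have no background here. No member was at least 2-fold lower under any of these settings. The autosomal share at least 2-fold lower was 0.16% with a pseudocount of 1 and 18.4% with a pseudocount of 0.01. Every member passed the filter on mean level and every symbol was listed once, so neither setting changed a value. Why the number of members at least 2-fold higher moved between settings was not tested. No paired analysis was possible because each genotype had 1 ChIP library, and no library could be left out. Depth is unknown, which limits the short members most: among autosomal genes the SD of level-matched differences was 0.86 in the shortest quartile of gene length and 0.28 in the longest.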
